A study of Mus musculus with 58 samples.

Results

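The 10 genes described here are enzymes of nitrogen handling in the liver cells around the portal vein, together with a marker of these cells. The enzymes are the 5 of the urea cycle (Cps1, Otc, Ass1, Asl and Arg1) and Nags, which makes the activator of the cycle. With them are 3 that release ammonia from amino acids (Gls2, Hal and Sds). The marker is Cyp2f2, a cytochrome P450 widely used to mark periportal cells. All 10 genes were taken from the deposited count table by gene symbol and make up 10 of its 24537 rows. The 58 RNA-seq libraries came from whole livers of male C57BL6/J mice that had received an AAV8 virus with the TBG promoter, which is active in hepatocytes, driving either Myc or the fluorescent protein mApple. Mice were gavaged with ruxolitinib, which blocks the JAK1 and JAK2 kinases, at 45 mg/kg or with vehicle, 2 times a day with a weekend break, for 30 days. The groups were old mice with Myc and ruxolitinib (14 libraries), old mice with Myc and vehicle (11), old mice with mApple and ruxolitinib (9), old mice with mApple and vehicle (8), young mice with Myc and ruxolitinib (10) and young mice with mApple and vehicle (6). All groups therefore carried the virus and the promoter, and no group was free of both. Old mice were 25 months old in the first of 2 sequencing batches (18 libraries) and 24 months old in the second (40 libraries). Young mice were 4 months old and are found in the second batch only, so comparisons with young mice use that batch alone. In young mice the vector and the drug cannot be told apart, because the 2 young groups differ in both.

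The urea cycle turns ammonia, which is toxic, into urea for excretion. It begins in the mitochondrion, where carbamoyl phosphate synthetase (Cps1), switched on by N-acetylglutamate from Nags, fixes ammonia and ornithine transcarbamylase (Otc) joins the product to ornithine, and it ends in the cytosol with argininosuccinate synthase (Ass1), argininosuccinate lyase (Asl) and arginase (Arg1). Hepatocytes near the portal vein run this cycle and the liver glutaminase (Gls2) that feeds it, while a thin layer of cells around the central vein captures the ammonia that escapes as glutamine, through glutamine synthetase (Glul).

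The libraries held 10.68 M to 40.98 M counts in exons (median 14.6 M, with M for mega), and levels are CPM, counts relative to the library total with TMM scaling over all 58 libraries. Albumin RNA (Alb), a marker of hepatocytes, was present in every library at 29900 to 187300 CPM. Myc RNA was 24.4 to 111 CPM in old Myc ruxolitinib livers, 6.85 to 132 CPM in old Myc vehicle livers and 36.1 to 61.5 CPM in young Myc ruxolitinib livers, against 2.35 to 19.3, 2.93 to 56.8 and 4.23 to 22.4 CPM in old mApple ruxolitinib, old mApple vehicle and young mApple vehicle livers. The library labelled old Myc vehicle number 870 had the lowest of the Myc values and the library labelled old mApple vehicle number 855 the highest of the mApple values. Both go against their labels, and the comparisons that include either (the drug in mApple and in Myc livers, the difference between these, and Myc under vehicle) are also given without both. Libraries 860 and 861 (old Myc ruxolitinib) and 864 and 865 (old mApple ruxolitinib), all of the first batch, stood apart. In libraries 860, 861 and 864 the summed level of 10 leukocyte markers was 3363, 2456 and 1293 CPM, against a highest value of 622 CPM in any vehicle group. Library 868 (old Myc ruxolitinib, first batch) also lay above the vehicle groups, at 965 CPM. It was kept wherever 860, 861, 864 and 865 were left out. Library 865, at 422 CPM, did not stand apart in leukocyte markers but had the highest sum of 4 stellate markers, 722 CPM against at most 358 CPM in any vehicle group, and 447 CPM of 5 cholangiocyte markers against at most 207 CPM. The labels name each library as a sample but do not say that each came from a separate animal, so p-values measure the spread between these libraries. In whole liver, fewer periportal cells and less RNA per cell cannot be told apart.

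RefSeq promoter windows on GRCm38.p6, from 250 bases before to 50 bases after the start of the gene, were matched for 5 of the 10 genes (Ass1, Cyp2f2, Hal, Nags and Otc). Those of Otc, the gene called in the most comparisons, and of Ass1 and Hal, which varied together between livers, are shown.
Otc promoter, chrX:10252055-10252354, plus strand: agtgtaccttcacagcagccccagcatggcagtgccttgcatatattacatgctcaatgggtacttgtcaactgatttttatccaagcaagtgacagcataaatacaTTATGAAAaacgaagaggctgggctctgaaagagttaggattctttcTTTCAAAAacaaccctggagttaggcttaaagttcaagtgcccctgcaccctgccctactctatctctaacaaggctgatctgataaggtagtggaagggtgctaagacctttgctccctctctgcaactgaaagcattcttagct
Ass1 promoter, chr2:31470020-31470319, plus strand: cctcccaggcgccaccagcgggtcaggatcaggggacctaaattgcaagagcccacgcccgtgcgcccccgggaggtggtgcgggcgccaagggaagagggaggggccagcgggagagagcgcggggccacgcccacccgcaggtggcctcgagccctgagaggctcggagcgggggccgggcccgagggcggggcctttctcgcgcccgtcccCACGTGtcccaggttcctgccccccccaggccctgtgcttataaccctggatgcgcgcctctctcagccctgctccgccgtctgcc
Hal promoter, chr10:93488518-93488817, plus strand: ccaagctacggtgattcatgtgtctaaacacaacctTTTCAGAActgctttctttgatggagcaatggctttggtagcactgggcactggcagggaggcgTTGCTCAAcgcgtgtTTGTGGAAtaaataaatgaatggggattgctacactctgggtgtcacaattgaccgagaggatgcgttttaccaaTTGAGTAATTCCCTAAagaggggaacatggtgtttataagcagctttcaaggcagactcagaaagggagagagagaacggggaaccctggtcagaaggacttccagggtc
Capitals mark matches to the motifs searched. The E-box CACGTG, the sequence that Myc with its partner Max is known to bind, was found 1 time in the Ass1 window, with its first base at -36 from the start site, and in none of the other 4 windows, while 7.15% of 32851 RefSeq windows of that length hold it. The C/EBP core TTNNGNAA, searched on both strands, had 5 matches in the Hal window, the last 2 of them side by side, 2 in the Otc window, at -143 and -96, and 1 in the Nags window, and 40.7% of all windows hold at least 1. The STAT motif TTCNNNGAA (8.3% of all windows) and the cyclic AMP element TGACGTCA (1.79%), both searched on both strands, and TATAAA on the coding strand (8.32%) were in none of the 5. A match is a description of the letters and not of binding.

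Per kilobase of exon, Ass1 was the most abundant of the 10 genes in all 58 libraries, with 386 to 4910 CPM per kb and a median of 1913. Arg1, Cyp2f2 and Cps1 followed with medians of 805, 770 and 706 CPM per kb, and their ranges over libraries overlapped almost entirely. Asl and Otc came next at medians of 221 and 201, then Gls2 and Hal at 150 and 141 and Sds at 106 CPM per kb, and the ranges of neighbours in this order overlapped. Nags was the lowest in 57 libraries, with a median of 31.0 CPM per kb, and Hal was the lowest in library 864. Together the 10 genes took 0.389% to 2.17% of the exon counts of a library, with a median of 1.12%.

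**Figure D1:**
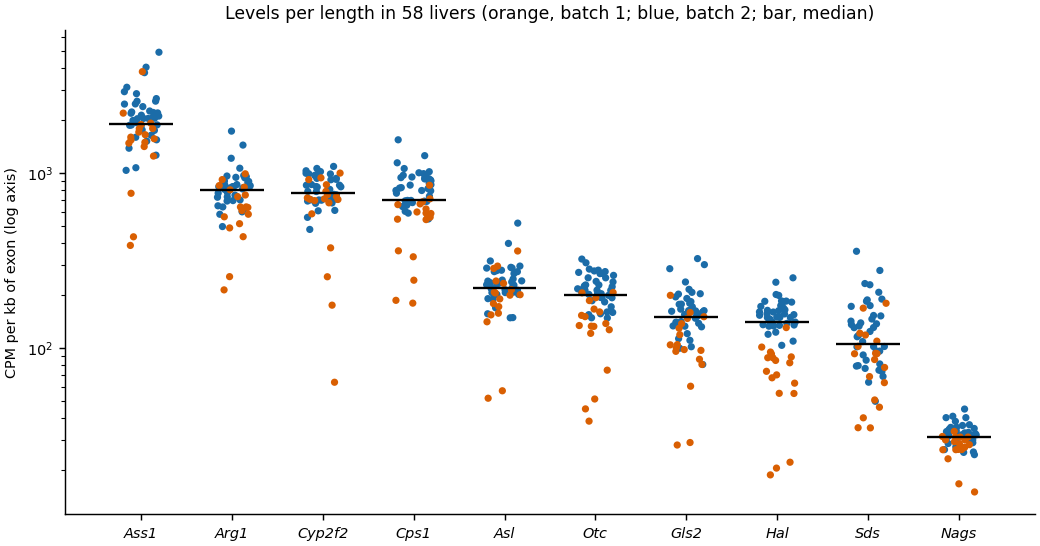
Levels of the 10 genes in CPM per kilobase of exon on a log axis, 1 point per library (58), with orange for the first batch, blue for the second and a bar at the median. Ass1 lies highest at a median of 1913 and Nags lowest at 31.0 CPM per kb, and the lowest points of most genes are orange.

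Sds and Cps1 were far above relatives with the same or a similar reaction. Sds exceeded its paralogue Sdsl by a median of 19.2-fold per kb. Cps1 exceeded Cad, which makes carbamoyl phosphate for pyrimidines in the cytosol, by a median of 222-fold in old Myc ruxolitinib, 189-fold in old Myc vehicle and 165-fold in young Myc ruxolitinib livers, against 346-fold, 353-fold and 498-fold in old mApple ruxolitinib, old mApple vehicle and young mApple vehicle livers. Cad itself was higher with Myc, as given below. Arg2, the arginase of other tissues, had a median of 0.338 CPM per kb and no count in 1 library, so its ratio to Arg1 is not given.

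Several rows can hold reads of another gene. In mm10, Ass1 lies at chr2:31470270-31520670, and the table also has a row for Gm5424 with nearly the same coordinates (chr2:31470308-31520629) whose counts were 0.987 to 0.991 of those of Ass1 in every library. The Gm5424 row gave the same fold change as Ass1 to within 0.01 in each comparison, so the 2 rows share their reads and the level of Ass1 alone is uncertain. Counting used no strand, and annotated exons overlap for Nags (443 bases with the antisense gene Gm11586), Sds (360 bases with Plbd2 and 141 with Gm15690), Cyp2f2 (274 bases with Gm15883) and Gls2 (97 bases with Spryd4). Cps1, Otc, Asl, Arg1 and Hal have no such overlap in GENCODE M21.

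Nags, which makes the activator of Cps1, varied least of the 10. Its group medians were 63.4 CPM in old Myc ruxolitinib, 61.4 in old Myc vehicle, 65.2 in old mApple ruxolitinib, 66.3 in old mApple vehicle, 66.8 in young Myc ruxolitinib and 70.0 in young mApple vehicle livers, and all groups overlapped. Cps1 (chr1:67123027-67231267) had medians of 3822, 3557, 3819 and 3759 CPM in the 4 old groups in the same order, and of 5433 and 5063 CPM in the 2 young groups. Otc (chrX:10252305-10321024) was at medians of 485, 447, 344 and 352 CPM in the old groups and 628 and 495 CPM in the young groups. The highest group median of Cps1 and of Otc was that of young Myc ruxolitinib livers.

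The cytosolic enzymes ranged widely among livers of each group. Ass1 ran from 623 to 6052 CPM (median 2876) in old Myc ruxolitinib, from 1673 to 6132 (2586) in old Myc vehicle, from 1237 to 4712 (3038) in old mApple ruxolitinib and from 1732 to 4155 CPM (2720) in old mApple vehicle livers. In young livers it ran from 3226 to 6503 CPM (median 3763) with Myc and ruxolitinib and from 3014 to 7919 CPM (3332) with mApple and vehicle. Asl (chr5:130011503-130024331) had group medians between 306 and 387 CPM, and Arg1 (chr10:24915207-24927470) between 940 and 1281 CPM, in both cases lowest in old Myc vehicle and highest in young mApple vehicle livers. The groups overlapped for all 3 genes.

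Of the ammonia-releasing enzymes, Gls2 (chr10:128194635-128210004) had medians of 348, 340 and 373 CPM in old Myc ruxolitinib, old Myc vehicle and old mApple ruxolitinib livers, 253 CPM in old mApple vehicle livers, and 442 and 336 CPM in young Myc ruxolitinib and young mApple vehicle livers. Hal (histidase, chr10:93488768-93516761) had medians of 423, 302, 414, 283, 392 and 426 CPM in the same order of groups. Sds (serine dehydratase, chr5:120476547-120483905) had medians of 189, 134, 151, 82.8, 108 and 101 CPM in that order. With batches pooled it was thus highest in old Myc ruxolitinib and lowest in old mApple vehicle livers. This order depends on the mix of batches, because the old medians pool both and the young groups are of the second alone. In the second batch Sds was 86.3 to 202 CPM in old mApple vehicle livers and 57.3 to 321 CPM in young mApple vehicle livers. Cyp2f2 (chr7:27119955-27133660) had medians of 1289, 1305, 1271 and 1285 CPM in the 4 old groups, against 1600 and 1708 CPM in the young groups.

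**Figure D2:**
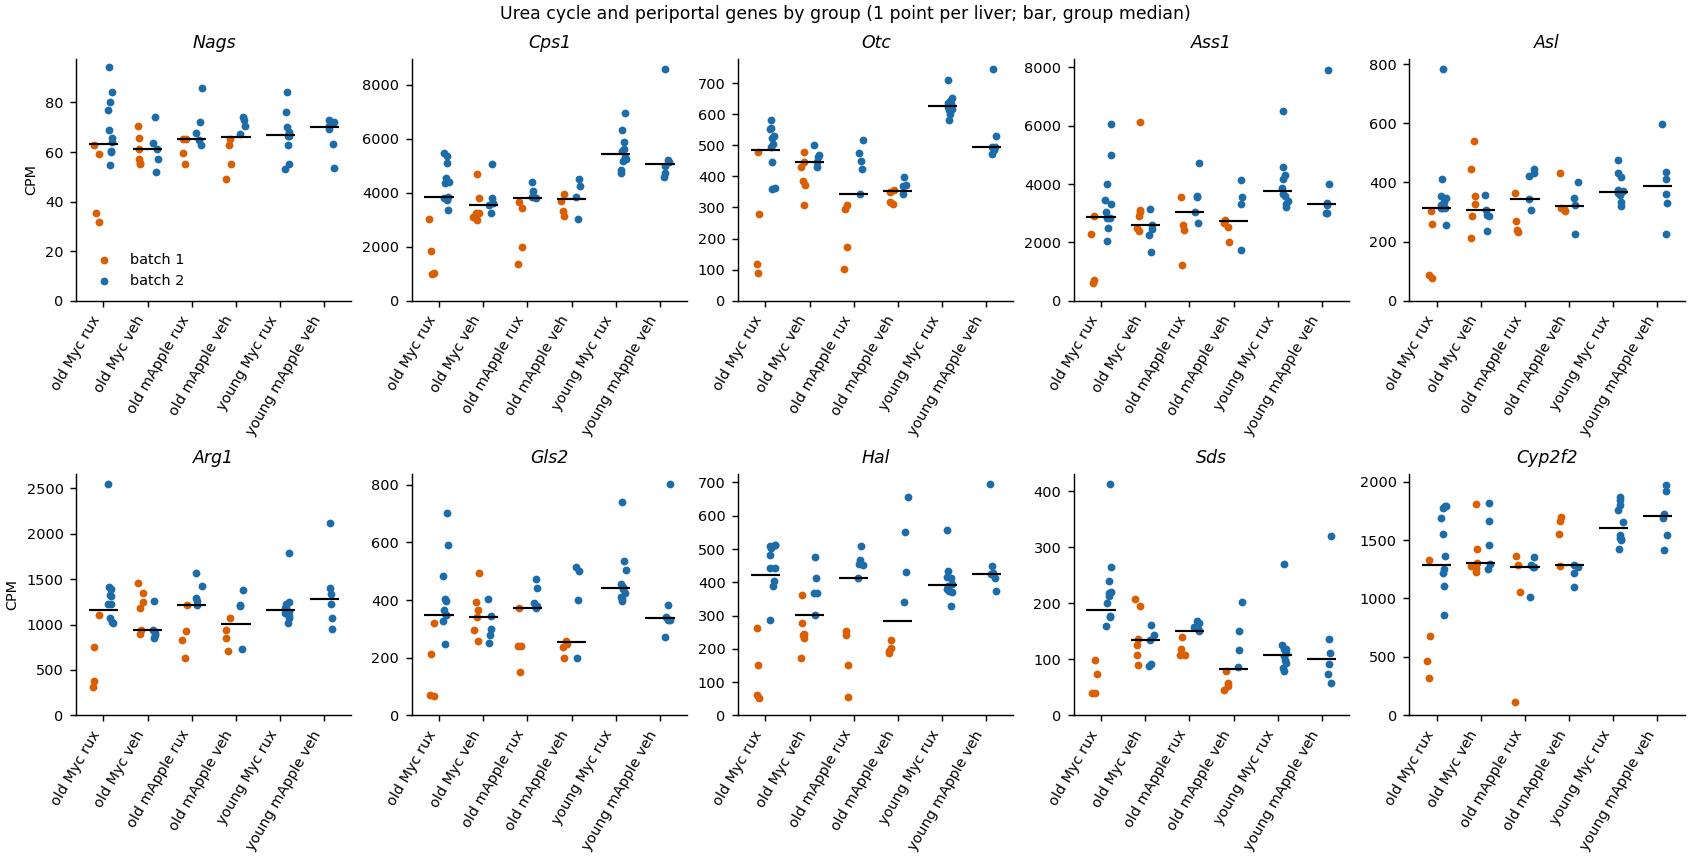
Level of each gene in CPM, 1 panel per gene and 1 point per library, in orange for the first batch and blue for the second, with a bar at the group median. Otc lies highest in young Myc ruxolitinib livers (median 628 CPM), Sds is highest in old Myc ruxolitinib livers of the second batch, and single livers such as library 1129 of the young mApple vehicle group stand far above the rest in several panels.

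Some of these levels differed between the batches. In old mApple vehicle livers Hal was 186 to 227 CPM in the first batch (25 months) and 339 to 655 CPM in the second (24 months), and Sds was 46.1 to 79.3 and 86.3 to 202 CPM, so the batches did not overlap for either gene. Gls2 in these livers was 199.0 to 258 CPM in the first batch and 198.9 to 514 CPM in the second. A month of age and the batch cannot be told apart here. Comparisons that used both batches carried a term for batch, and the median of the 10 genes within each batch is given for each of them.

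Ruxolitinib was first compared with vehicle within each vector in old mice, by edgeR's quasi-likelihood test with p adjusted over all genes tested (Benjamini-Hochberg, threshold 0.05). None of the 10 genes passed in mApple livers, where 0.391% of 13554 genes did, and none in Myc livers, where 0.545% of 13749 did. At an unadjusted p under 0.05 there was 1 gene in each (Sds in mApple and Cyp2f2 in Myc livers), where 9.79% and 14.0% of all genes had one, and DESeq2 called none. Sds was 107 to 169 CPM (median 151) in old mApple ruxolitinib livers, against 46.1 to 202 CPM (median 82.8) in old mApple vehicle livers. The groups overlapped, and the log2 fold change of 0.56 ± 0.17 (SE) did not pass (adjusted p = 0.262). It was 0.999 in the first batch, where all 4 drug values (107 to 140 CPM) lay above all 4 vehicle values, and 0.17 in the second. Without library 1136, the vehicle liver with the highest Sds, it was 0.71 (adjusted p = 0.0357). Without library 855 it was 0.50 over both batches (adjusted p = 0.467) and 0.96 in the first. Otc, which differed with Myc and with age below, was at -0.17 ± 0.19 for the drug in mApple livers, with -0.61 in batch 1 and 0.23 in batch 2, and Nags at 0.02 ± 0.07, with a 95% interval from -0.13 to 0.18. The 10 genes had a median of -0.12 in batch 1 and 0.06 in batch 2.

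In Myc livers the direction of the drug difference turned between the batches for 9 of the 10 genes, all but Cyp2f2. The median log2 fold change of the 10 genes was -0.96 in the first batch, against a median of -0.01 over all genes, and 0.29 in the second, against 0.02. Cps1 was 997.5, 1035, 1836 and 3011 CPM in the 4 first-batch old Myc ruxolitinib livers, against 2996 to 4707 CPM in the 6 old Myc vehicle livers, so 3 of the 4 lay below all vehicle livers. Without library 870 the median of the 10 genes in the first batch was -1.01. In the second batch it was 3340 to 5484 CPM in 10 ruxolitinib livers and 3262 to 5055 CPM in 5 vehicle livers, with overlap throughout. The lowest Cps1 was in libraries 861 and 860, which had the highest leukocyte sums, and the part of these cells was not tested. With 860, 861, 864 and 865 left out, Cps1 was at -0.02, Ass1 at 0.28 and Sds at 0.45, and none of the 10 passed. Library 868, with 1836 CPM of Cps1 and 965 CPM of leukocyte markers, was kept in that fit. Over both batches Cyp2f2 was at -0.43 ± 0.20 (adjusted p = 0.346), with -0.97 in batch 1 and -0.04 in batch 2, at -0.17 without these libraries and at -0.42 without 870. The test of whether the drug difference itself differed between Myc and mApple livers passed for none of the 10 and for 0% of 14046 genes, with 735 genes and none of the 10 at an unadjusted p under 0.05, and DESeq2 also called no gene. The median of this difference over the 10 genes was -0.71 in batch 1 and 0.24 in batch 2. Sds had the largest such difference over both batches, -0.54 ± 0.36 (95% interval -1.27 to 0.19), and -0.48 without libraries 855 and 870.

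Myc was compared with mApple in old mice given vehicle. Otc rose, alone among the 10 genes, while 18.8% of 13547 genes tested passed in either direction and 10.8% of all genes tested were higher with Myc. Otc was 307 to 501 CPM (median 447) in the 11 old Myc vehicle livers, against 310.3 to 397 CPM (median 352) in the 8 old mApple vehicle livers. In the second batch the groups did not overlap, with 430, 447, 462, 468 and 501 CPM in Myc livers, against 343, 369, 371 and 397 CPM in mApple livers. In the first batch they overlapped through library 870 alone, which had 307 CPM. The log2 fold change was 0.26 ± 0.08 (1.201-fold, adjusted p = 0.0194), and 0.32 without libraries 855 and 870, whose Myc goes against their labels (adjusted p = 0.00302). Within a batch it was 0.26 in the first (adjusted p = 0.269) and 0.30 in the second (adjusted p = 0.0729), and without a batch term it was 0.26 (adjusted p = 0.0605). Scaled to secreted hepatocyte genes, which moved the median of all genes by 0.50, it was 0.79.

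The other 9 genes did not pass, and 8 of them lay within 0.1 of 0 on the log2 scale: Cps1 was at -0.04 ± 0.11, Ass1 at -0.01 ± 0.21, Arg1 at 0.06 ± 0.14 and Cyp2f2 at 0.02 ± 0.11. For Cps1 the 95% interval ran from -0.28 to 0.20, and for Ass1 from -0.44 to 0.42. The exception was Sds at 0.52 ± 0.25 (adjusted p = 0.155), with 88.3 to 208 CPM in Myc livers, against 46.1 to 202 CPM in mApple livers. It was at 1.26 in the first batch (adjusted p = 0.0186), where all 6 Myc livers lay above all 4 mApple livers, and at -0.19 in the second, where they overlapped, and without library 1136 it was 0.69 (adjusted p = 0.0388). Without libraries 855 and 870 it was 0.44 over both batches (adjusted p = 0.279) and 1.29 in the first (adjusted p = 0.0239). The median over the 10 genes was 0.29 in batch 1 and -0.21 in batch 2, and 8 of the 10 turned direction between them. Marker levels also moved with Myc: all 4 endothelial markers fell, with a sum of 119 to 204 CPM in Myc livers, against 162 to 256 CPM in mApple livers, and 3 of 11 secreted hepatocyte proteins (Alb, Apoa1 and Apob) fell, with a sum of 101500 to 169200 CPM, against 155400 to 234100 CPM. Leukocyte markers did not pass in any of 10, with sums of 250.4 to 527 and 224 to 622 CPM. Without 855 and 870 all 4 endothelial markers again fell and 2 of the 11 hepatocyte proteins did (Alb and Apoa1). The part of these shifts in the Otc result was not tested.

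With ruxolitinib given to both, none of the 10 genes passed between old Myc and old mApple livers, against 14.4% of 14010 genes, none had an unadjusted p under 0.05 and DESeq2 called none. Otc was 88.2 to 582 CPM (median 485) in old Myc ruxolitinib livers, against 104 to 517 CPM (median 344) in old mApple ruxolitinib livers, a log2 fold change of 0.13 ± 0.22, with 0.10 in batch 1 and 0.15 in batch 2. The 4 lowest Otc values were those of libraries 861, 864, 860 and 865, in that order, and without them it was 0.18 (adjusted p = 0.327). The median over the 10 genes was -0.57 in the first batch, 0.02 in the second and -0.03 without these 4 libraries. The Myc differences with and without the drug draw on separate livers, and their difference is the interaction tested above.

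Myc with ruxolitinib was compared with mApple and vehicle in the second batch at each age. None of the 10 genes passed in old livers, where 10.9% of 13761 genes did, or in young livers, where 27.5% of 12808 did. At an unadjusted p under 0.05 there were 2 in old livers (Otc and Sds), where 28.0% of all genes had one, and 1 in young livers (Otc), where 38.5% did, so these shares are not above those of all genes. DESeq2 called those same 2 in old livers and Otc in young livers. In old livers Otc was 358 to 582 CPM (median 513) in the 10 Myc ruxolitinib livers, against 343 to 397 CPM in the 4 mApple vehicle livers, a log2 fold change of 0.38 ± 0.13 (adjusted p = 0.0731). Only libraries 1154 and 1150 of the Myc group fell among the mApple values, and leaving either out gave 0.42 with adjusted p of 0.0257 and 0.036. In young livers Otc was 582 to 709 CPM (median 628) in Myc ruxolitinib livers, against 472 to 744 CPM (median 495) in mApple vehicle livers, a log2 fold change of 0.23 ± 0.09 (adjusted p = 0.0561). A single mApple liver, number 1134, lay above all Myc livers, the other 5 lay below them, and without it the difference was 0.35 (adjusted p = 1e-04).

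In old livers Sds was 159 to 412 CPM (median 216) with Myc and ruxolitinib, against 86.3, 117, 151 and 202 CPM with mApple and vehicle, a log2 fold change of 0.68 ± 0.25 (adjusted p = 0.0857), and without library 1136 it was 0.95 (adjusted p = 0.0446). All 4 endothelial markers fell in this comparison, with sums of 63.6 to 161 CPM in Myc ruxolitinib livers, against 162 to 232 CPM in mApple vehicle livers. In young livers it was 79.5 to 270 CPM (median 108), against 57.3 to 321 CPM (median 101), and the log2 fold change was -0.13 ± 0.31. Gls2 was 397 to 740 CPM in young Myc ruxolitinib livers, against 273 to 802 CPM in young mApple vehicle livers, a log2 fold change of 0.21 ± 0.19. The mApple liver 1129 had 802 CPM while the other 5 of its group had 273 to 384 CPM, all below every Myc liver, and without it Gls2 was at 0.52 (adjusted p = 0.00575). In these young livers 8 of 11 hepatocyte markers fell, with sums of 89890 to 116800 CPM in Myc ruxolitinib livers, against 140300 to 224500 CPM in mApple vehicle livers. The part of these markers in either result was not tested. The test of whether the combined difference itself changed with age passed for none of the 10 genes and for 0.287% of 13609 genes, with none of the 10 at an unadjusted p under 0.05 and none by DESeq2. For Sds this difference was 0.81 ± 0.44 (95% interval -0.09 to 1.72).

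**Figure D3:**
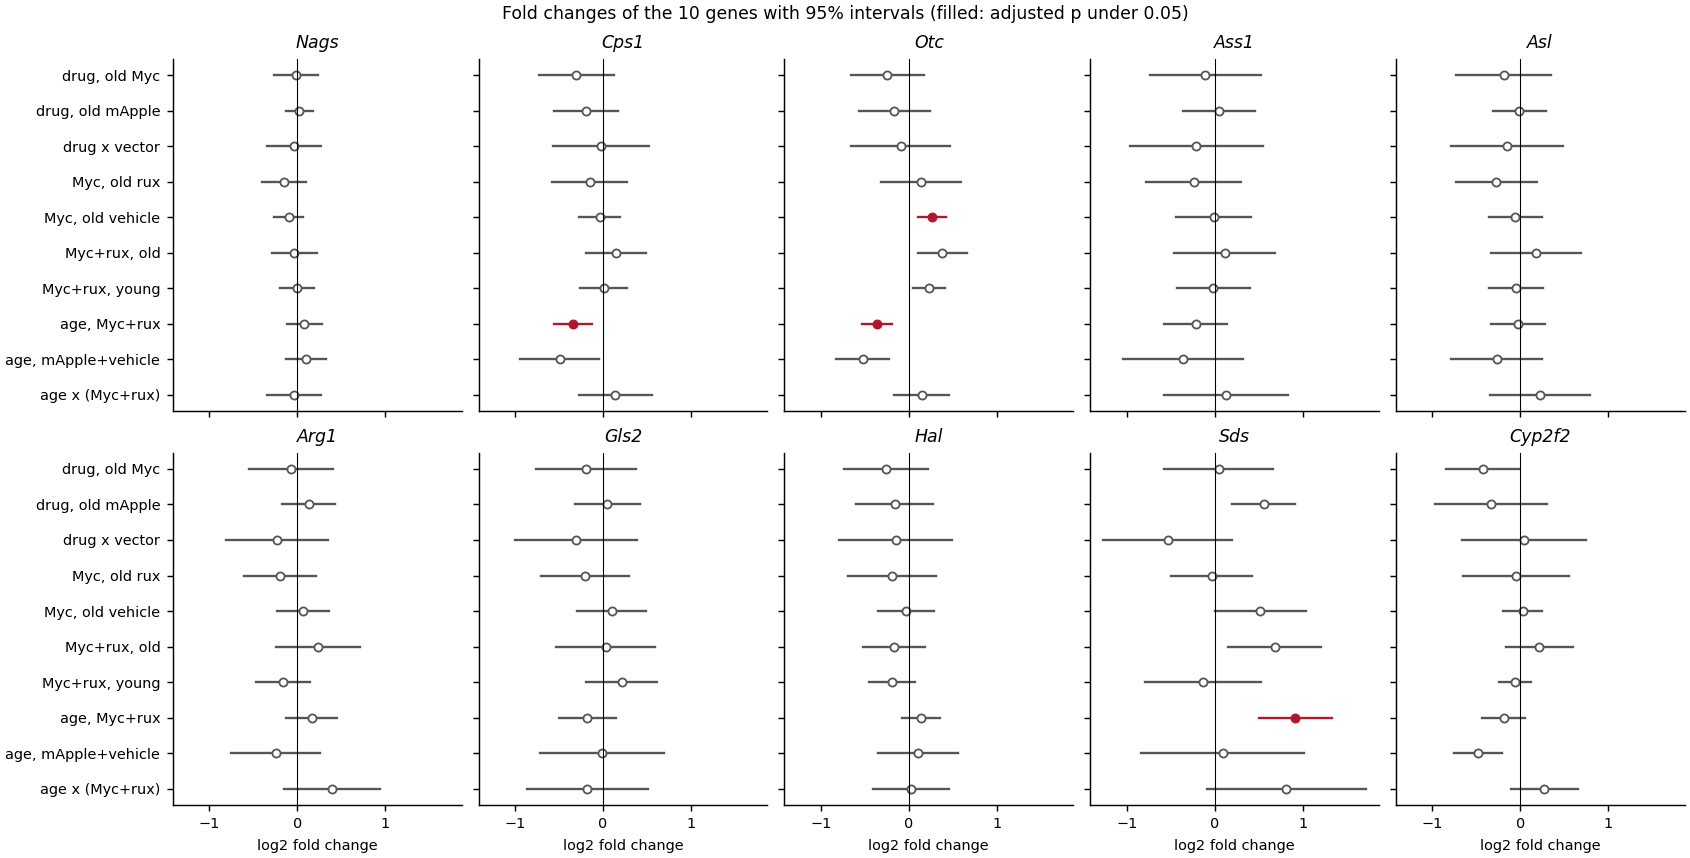
Log2 fold change of each gene in each of the 10 comparisons, 1 panel per gene, with 95% intervals (edgeR), filled red where the adjusted p was under 0.05. Filled points are Otc for Myc under vehicle (0.26) and for age with Myc and ruxolitinib (-0.37), and Cps1 (-0.34) and Sds (0.92) for that same age comparison.

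Age was compared in the second batch. In Myc ruxolitinib livers 3 of the 10 genes passed, against 33.7% of 12760 genes: Sds rose in old livers (18.1% of all genes rose), and Otc and Cps1 fell (15.6% fell). The members' share is thus near that of all genes. Sds was 159, 176, 177, 200, 214, 218, 220, 241, 266 and 412 CPM in old livers, against 79.5, 84.8, 93.6, 98.4, 105, 111, 118, 118, 126 and 270 CPM in young livers. Every old liver lay above every young liver except number 1123, and the log2 fold change was 0.92 ± 0.20 (1.89-fold, adjusted p = 0.00148). Without library 1123 it was 1.14. Plbd2, whose exons overlap those of Sds, was at 0.21 ± 0.08 in this comparison (adjusted p = 0.0654).

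Otc was 358 to 582 CPM (median 513) in old Myc ruxolitinib livers, against 582 to 709 CPM (median 628) in young ones. The groups did not overlap, with 581.5 CPM in the highest old liver and 581.9 CPM in the lowest young one, and the log2 fold change was -0.37 ± 0.08 (0.78-fold, adjusted p = 0.00199). Cps1 was 3340 to 5484 CPM (median 4384) in old livers, against 4715 to 6950 CPM (median 5433) in young livers. The groups overlapped, and the log2 fold change was -0.34 ± 0.10 (0.79-fold, adjusted p = 0.016). Scaled to secreted hepatocyte genes, which moved the median of all genes by -0.36, Sds was at 0.56, Otc at -0.74 and Cps1 at -0.72, all past the threshold. The remaining 7 genes lay between -0.21 ± 0.17 (Ass1) and 0.16 ± 0.14 (Arg1). Summed leukocyte markers were 141 to 384 CPM in old livers, against 111 to 265 CPM in young livers, with 4 of 8 tested markers higher. Endothelial sums were 63.6 to 161 CPM, against 104 to 213 CPM, with 3 of 4 markers lower, and hepatocyte sums 102100 to 170600 CPM, against 89890 to 116800 CPM, with 4 of 11 higher and 1 lower. Their part in the age results was not tested.

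In mApple vehicle livers none of the 10 genes passed for age, against 1.1% of 13155 genes, but 3 had an unadjusted p under 0.05 (Cyp2f2, Otc and Cps1), where 17.8% of all genes had one, and DESeq2 called Otc and Cyp2f2. Otc was 343, 369, 371 and 397 CPM in the 4 old livers, against 472, 486, 494, 495, 530 and 744 CPM in the 6 young livers. The groups did not overlap, and the log2 fold change was -0.52 ± 0.14 (adjusted p = 0.0844). Cyp2f2 was 1101 to 1288 CPM in old livers, against 1419 to 1975 CPM in young livers, again without overlap, at -0.48 ± 0.13 (adjusted p = 0.0838). Cps1 was 3021, 3834, 4239 and 4504 CPM in old livers, against 4562, 4743, 4991, 5135, 5204 and 8562 CPM in young livers, also without overlap, at -0.49 ± 0.21 (adjusted p = 0.2397). Sds was at 0.09 ± 0.43, and each age comparison rests on its own livers. Without the young liver 1134 both Otc (-0.42, adjusted p = 0.0337) and Cyp2f2 (-0.54, adjusted p = 0.0361) passed, and without 1129 Cyp2f2 did (-0.52, adjusted p = 0.0497). The leukocyte markers S100a8 and S100a9 rose with age here, and the marker sum was 224 to 622 CPM in old livers, against 144 to 391 CPM in young livers. Its part was not tested.

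Several of the 10 genes varied together among livers of one group. With each gene's log2(CPM + 1) centred within group and batch, the 45 pairs of the 10 genes had a median Pearson r of 0.65 over 58 libraries, with 30 pairs above 0.5, and a median of 0.37 over 54 libraries without 860, 861, 864 and 865, with 20 pairs above 0.5. These are descriptions across libraries, whose points share library preparation, scaling and the mixture of cells. The share of all gene pairs above 0.5 was not computed, so these counts are not read as particular to the 10 genes. Ass1 and Gls2 were the closest pair, at 0.95 over 58 and 0.92 over 54 libraries. Sds, Arg1, Asl, Gls2, Ass1, Cps1 and Hal formed a block whose pairs ranged from 0.37 (Asl and Hal) to 0.92 over 54 libraries. Otc stood outside it: its r with Cps1 was 0.68 over 58 libraries and 0.16 without the 4, and with Ass1 0.56 and 0.07. Nags and Cyp2f2 likewise had no r above 0.4 with the block genes over 54 libraries, and Otc and Cyp2f2 had 0.45 with each other.

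**Figure D4:**
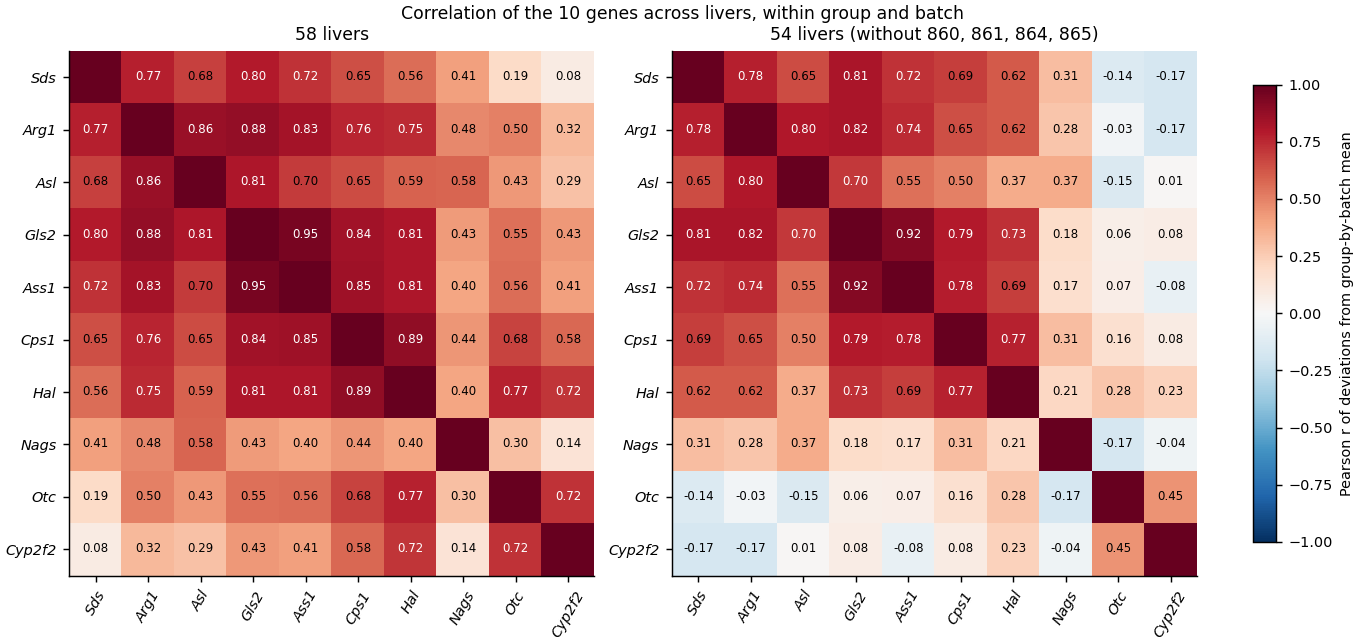
Pearson r between the genes across libraries, after centring log2(CPM + 1) within group and batch, over 58 libraries (left) and over 54 without libraries 860, 861, 864 and 865 (right). The dark block of Sds, Arg1, Asl, Gls2, Ass1, Cps1 and Hal is present on both sides, while Otc and Cyp2f2 are near 0 with it on the right.

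Pericentral Glul tended to run opposite to the block once libraries 860, 861, 864 and 865 were left out. Its r over 54 libraries was -0.70 with Ass1 and with Gls2, -0.61 with Sds, -0.55 with Cps1, -0.54 with Hal, -0.43 with Arg1 and -0.28 with Asl. Over all 58 libraries the same pairs were weaker, at -0.38 for Ass1, -0.36 for Gls2, -0.40 for Sds, -0.21 for Cps1, -0.22 for Hal, -0.17 for Arg1 and 0.00 for Asl. Outside the block it was 0.22 with Otc, 0.03 with Cyp2f2 and -0.07 with Nags over 54 libraries, and 0.23, -0.12 and 0.13 over 58. Of the 16 pericentral genes read below, Glul had the most negative r with Ass1 over 54 libraries. The others ran from -0.47 (Cyp1a2) to -0.01 (Lect2), with Axin2 at -0.02, Rhbg at -0.03 and Gulo at -0.12. Every gene of this list had a negative r with Ass1, among them Slc1a2 (-0.44), Cyp2e1 (-0.40) and Lgr5 (-0.37). Glul was thus the strongest of a shared sign, and several others were near 0. With Asl the sign was mixed, as Gulo had 0.24. Library 1129 (young mApple vehicle) had Ass1 at 7919 CPM and Glul at 445 CPM, while the other 5 libraries of its group had 3014 to 4010 CPM of Ass1 and 997 to 1352 CPM of Glul. Library 1123 (young Myc ruxolitinib) had Ass1 at 6503 and Glul at 351 CPM, against 3226 to 4589 and 516 to 780 CPM in the rest of its group. Library 866 (old Myc vehicle) had Ass1 at 6132 and Glul at 370 CPM, against 1673 to 3133 and 637 to 1121 CPM in the rest of its group. Library 1154 (old Myc ruxolitinib) had Ass1 at 6052 CPM, above the 623 to 4994 CPM of the rest of its group, but its Glul of 391 CPM lay within their 335 to 874 CPM. All 4 of these livers, named after their values were seen, also had the highest Tat of their groups, the glucocorticoid-responsive tyrosine aminotransferase, at 2057 to 2664 CPM. Over 54 libraries Tat had an r of 0.74 with Ass1, 0.73 with Sds and 0.72 with Gls2. Other periportal genes differed among themselves. With Ass1, Sds and Gls2 in that order, Pck1 had 0.07, 0.27 and 0.24, and G6pc -0.10, -0.01 and 0.06. Aldh1b1 had 0.60, 0.68 and 0.68 with them, and Hsd17b6 -0.40, -0.34 and -0.36. Pck1 had 0.49 with Asl and 0.33 with Arg1. Pck1 was the lowest of its group in library 866 (437 CPM) and the highest of its group in library 1154 (4528 CPM).

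**Figure D5:**
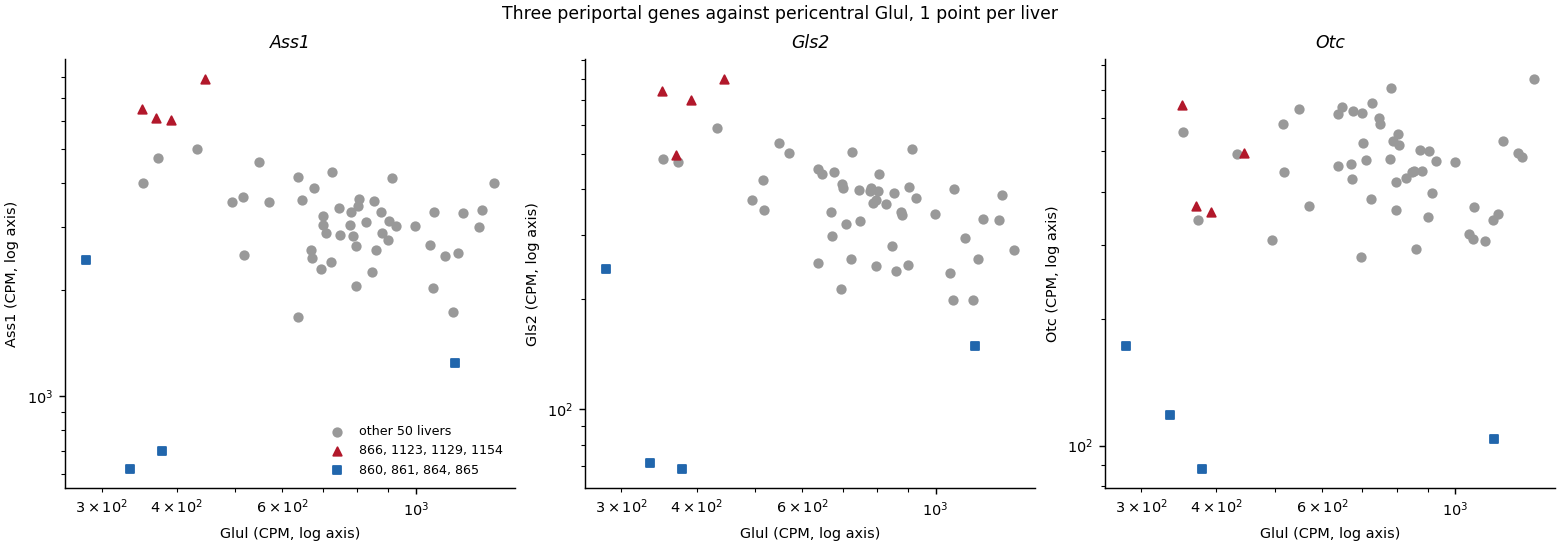
Ass1, Gls2 and Otc against Glul in CPM on log axes, 1 point per library, with red triangles for libraries 866, 1123, 1129 and 1154, blue squares for 860, 861, 864 and 865 and grey for the other 50. Ass1 and Gls2 are lower where Glul is higher apart from the blue squares, and Otc shows no such slope.

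The genes most like each member, by r over all 58 libraries, included other members for 7 of the 10. For Hal they were Uroc1 (0.89) and Amdhd1 (0.87), the next 2 enzymes of histidine breakdown, with Cps1 between them at 0.89. For Sds they were Gls2 (0.80), Got1 (0.80), the cytosolic aspartate aminotransferase, and Arg1 (0.77). For Otc they were Aadac (0.93), Cat (0.91) and Acadsb (0.91), none of them members, and over 54 libraries Cat remained at 0.77. For Cyp2f2 they were Ugt2b1, Ugt2a3 and Ces1f (0.80 to 0.81), and over 54 libraries no gene exceeded 0.65.

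Around the cycle, 15 genes of transport and ammonia supply, 28 of amino acid breakdown and 10 that use ornithine, arginine or carbamoyl phosphate were read in the same tests. With ruxolitinib none of them passed in either vector. With Myc under vehicle, where 10.8% of all genes rose and 8.01% fell, 1 of 15 supply genes rose (Slc25a12, a mitochondrial aspartate-glutamate carrier, 0.30 ± 0.09) and none fell, with a list median of -0.02 beside -0.02 over all genes. Of 28 breakdown genes 1 rose (Prodh2, 0.48 ± 0.12) and 2 fell (Gstz1 and Kynu), with a median of 0.01. Of the 9 tested users 3 rose and 1 fell, with a median of 0.48: Umps (0.48 ± 0.09) and Dhodh (0.56 ± 0.15), which make pyrimidines from carbamoyl phosphate, were among those that rose, and Gatm, which takes arginine into creatine, fell (-0.49 ± 0.11). Cad, the first enzyme of the same pyrimidine route, rose by 0.72 ± 0.18. Without libraries 855 and 870 Cad (0.75), Umps (0.51), Dhodh (0.53), Gatm (-0.49), Slc25a12 (0.35) and Prodh2 (0.45) passed again, and Gstz1 and Kynu did not. The breakdown gene Gldc passed only in that fit (0.47 ± 0.12, adjusted p = 0.01015). In young livers with Myc and ruxolitinib Cad was at 1.42 ± 0.17, Odc1, the first enzyme of polyamine synthesis, at 0.97 ± 0.11, both past the threshold, while none of the 5 cycle enzymes passed there and only Otc did with Myc under vehicle. In that young comparison 13.5% of all genes rose and 14.0% fell. Of 15 supply genes 4 fell and 1 rose, with a median of -0.10, and of 28 breakdown genes 9 fell and 3 rose, with a median of -0.20. Of 8 tested users 3 rose and 1 fell (Oat, -0.78 ± 0.19), with a median of 0.28.

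For age in Myc ruxolitinib livers, where 18.1% of all genes rose and 15.6% fell, 1 of 15 supply genes rose (Slc38a3, a glutamine transporter, 0.40 ± 0.11) and 1 fell (Slc25a13, the liver aspartate-glutamate carrier citrin, -0.39 ± 0.07), with a list median of 0.05 beside 0.02 over all genes. Odc1 (-0.75 ± 0.17), Umps (-0.23 ± 0.05) and Gatm (-0.54 ± 0.19) fell, 3 of 8 tested users, with a median of -0.20, and Cad fell by 0.92 on the log2 scale. Of the breakdown genes 3 of 28 rose and 4 fell, with a median of 0.02, among them Agxt2 (0.44 ± 0.11) and Dld (-0.22 ± 0.06). For age in mApple vehicle livers, where 0.243% of all genes fell, 3 of 28 breakdown genes fell (Bhmt, Tdo2 and Kmo, by 0.92, 0.57 and 0.52 on the log2 scale) and none of the supply or user genes passed. The 10 genes had a median log2 fold change of -0.26 in that comparison beside 0.00 over all genes, and of -0.10 beside 0.02 with Myc and ruxolitinib.

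Of 11 other periportal genes 2 rose (Aldh1b1, 1.195 ± 0.30, and Hsd17b6, 0.70 ± 0.23) and 1 fell (Pigr, -0.39 ± 0.11) with Myc under vehicle, and of 16 pericentral genes 1 rose (Rhbg, an ammonia transporter, 0.996 ± 0.26) and 2 fell (Cyp27a1 and Gulo), beside the same shares of all genes. Without libraries 855 and 870 Hsd17b6 did not pass, and Aldh1b1, Pigr, Rhbg, Cyp27a1 and Gulo did. Glul passed only in that fit (-0.48 ± 0.16, adjusted p = 0.0427), so that 3 of 16 pericentral genes fell. The list medians were 0.01 for the other periportal genes and -0.27 for the pericentral genes. In young livers with Myc and ruxolitinib, where 13.5% of all genes rose and 14.0% fell, 8 of 16 pericentral genes fell, led by Lect2 (-0.60 ± 0.10) and Slc1a2 (-0.67 ± 0.13) and including Glul (-0.79 ± 0.19, named after its values were seen), and 1 rose, with a median of -0.33, while 3 of 11 other periportal genes fell and 2 rose, with a median of -0.04. Falls were not particular to the pericentral list: 8 of 11 secreted hepatocyte genes also fell there and 0 rose, with a median of -0.39. Of 13 regulators, Hnf4a, a nuclear receptor that maintains hepatocyte genes, fell with Myc under vehicle (-0.31 ± 0.09) and Sirt5, a mitochondrial deacylase known to act on Cps1, rose (0.49 ± 0.14). Without libraries 855 and 870 Sirt5 passed again (0.55) and Hnf4a did not (-0.28, adjusted p = 0.0581). The regulator Creb1 passed only in that fit (-0.21, adjusted p = 0.0464).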

How the data were processed

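Whole-liver polyA RNA was sequenced as paired 75-base reads, per the labels' protocols, and STAR and HOMER, both of unstated version, and the builds GRCm38 and mm10 are named in the submitters' processing notes. The deposited table holds expected counts per gene made by the authors: per the file headers, raw HOMER counts over exons condensed to 1 row per gene, without a setting for strand. Values step by 0.5, and the 29.9% that are not whole were rounded before modelling. No 2 libraries were identical.

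Groups and batches come from the labels. Each comparison was fitted with edgeR 4.0.16 (limma 3.58.1, R 4.3.3) using only libraries in the groups compared. TMM factors and filterByExpr (minimum count 10) were used, batch was a covariate if a comparison spanned both, and two-sided p-values were adjusted by Benjamini-Hochberg over all tested genes (threshold 0.05). The SE is the absolute log2 fold change over the square root of F, and depth enters through it. All 10 genes were tested in all 10 comparisons. Alternatives were DESeq2 1.42.0, RLE factors, hepatocyte-gene scaling (11 of 12 genes found), leaving out the filter or the batch term, 1 batch at a time, and leaving out libraries. The script was tested on simulated counts. Exon overlaps came from GENCODE M21 and figures from Python 3.11.15 with matplotlib 3.10.9.

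The plan was to name all 10 members in each comparison and up to 3 called genes of smallest p from each other list. It also held the relatives Arg2, Sdsl and Cad, and the 3 tested genes with the highest r to each member. Not all of these are printed, so an unnamed gene of another list can also have passed. Members and lists were chosen with earlier results of these data known. Some results on withheld items are not reported here.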

Additional observations from a re-analysis of the deposited data

Results flagged for a closer look

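In groups of 6 to 10 libraries the highest or lowest value was set against the rest of its group by its gap over the whole range (Dixon's 95% limit). Of 40 gene and group sets, 12 had a value that stood apart. All 12 came from libraries 1123, 1129, 1134 and 864. Genes of 1 liver vary together, so the sets are not separate draws, and 12 of 40 cannot be set against the 1 in 20 of the limit. The old groups tested, both with mApple, pooled the batches. Library 1129 of the young mApple vehicle group was high in 4 genes: Cps1 at 8562 CPM (others 4562 to 5204), Ass1 at 7919 (3014 to 4010), Gls2 at 801.6 (273 to 384) and Hal at 694.3 (373 to 450.2). Library 1123 of the young Myc ruxolitinib group was high in 5: Ass1 at 6503 CPM (3226 to 4589), Arg1 at 1784 (1022 to 1244), Gls2 at 740.3 (397 to 535), Hal at 557.4 (330.2 to 434) and Sds at 269.8 (79.5 to 126). Library 1134 of the young mApple vehicle group had Otc at 744.4 CPM (472 to 530). Library 864 of the old mApple ruxolitinib group was low in Ass1 at 1237 CPM (2419 to 4712) and in Cyp2f2 at 115.3 CPM (1010 to 1361), and had 1293 CPM of summed leukocyte markers and 886 CPM of summed cholangiocyte markers, against group medians of 298 and 108 CPM. The part of these cells was not tested.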

How the results depend on the processing

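Scaling to 11 secreted hepatocyte genes moved the median of all genes by 0.50 for Myc under vehicle, 0.40 for Myc under ruxolitinib, 0.67 for Myc with ruxolitinib in young and 0.36 in old livers, and by -0.36 for age with Myc and ruxolitinib. Under it 10, 1, 9, 4 and 8 members passed in these comparisons in that order, beside 76.1%, 28.0%, 86.5%, 28.6% and 61.8% of all genes tested, and those that turned sign followed the shift. For Myc under vehicle they were Cps1 (0.49), Ass1 (0.52), Asl (0.47), Nags (0.42) and Hal (0.48). In young livers they were Ass1 (0.68), Asl (0.61), Arg1 (0.50), Nags (0.66), Hal (0.48) and Cyp2f2 (0.61), and for age Nags (-0.32). The scaling used the summed counts of the 11 genes, in which Alb weighs heavily: 64120 of 101500 CPM in library 1144 and 29900 of 92360 CPM in library 864. Alb itself fell with Myc under vehicle (-0.60 ± 0.13) and with Myc and ruxolitinib in young livers (-0.85 ± 0.14). For age with Myc and ruxolitinib it rose (0.47 ± 0.13). The scale was therefore not fixed in these comparisons. For Myc under vehicle 0 members passed without a batch term and in the second batch alone, and in the first batch alone the 1 that passed was Sds, not Otc. DESeq2 called 1 member in young livers with Myc and ruxolitinib, 2 in old livers, and 2 for age in mApple vehicle livers. Without libraries 866, 1123, 1129 and 1154, an alternative chosen after seeing the data, 1 passed in each of these 3 (Gls2, Otc and Cyp2f2).

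Leaving out 1 library at a time gave 0 to 1 members for the drug in mApple livers, 1 to 2 for Myc under vehicle, 0 to 1 for Myc with ruxolitinib at each age, 0 to 2 for age in mApple vehicle livers, 0 for the drug in Myc livers and for Myc under ruxolitinib, and 3 for age with Myc and ruxolitinib. Counts over all genes, lowest to highest over the other alternatives, were 2 to 142 for the drug in mApple livers (main 53), 9 to 907 in Myc livers (75), 629 to 10316 for Myc under vehicle (2544), 0 to 3923 under ruxolitinib (2012), 3332 to 11079 for Myc with ruxolitinib in young livers (3524), 1387 to 3932 in old livers (1496, or 539 with 1 library left out), 64 to 649 for age in mApple vehicle livers (145, or 22), 4306 to 7886 with Myc and ruxolitinib (4306) and 27 to 202 for the difference between ages (39). Leaving out 1 library was not run for the 2 interactions. No paired analysis was possible because library numbers are not shared between groups. The depth bears on Nags and Arg2, the lowest of the genes read.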
